A study of Mus musculus with 16 samples.

Results

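Small nucleolar RNAs (snoRNAs) and the transcripts that carry them were followed through microglia sorted by their uptake of amyloid in the 5xFAD mouse, which carries human amyloid transgenes under a promoter active in neurons. The genes were taken by symbol from the deposited table. Symbols that start with Snora or Snord name snoRNAs, those that start with Scarna name the small RNAs of the Cajal body, and the Snhg genes and Gas5 are the named host transcripts. Of 17951 genes in the table, 77 belonged here, which were 66 snoRNA rows (38 of the C/D box class, 22 of the H/ACA box class and 6 of the Cajal body) and 11 host transcripts, namely Gas5, Snhg3, Snhg4, Snhg5, Snhg6, Snhg8, Snhg9, Snhg12, Snhg15, Snhg17 and Snhg20. All 77 had passed the authors' filter on low counts, whereas the reference annotation on the same genome build names 166 genes of these symbols, 150 of them snoRNAs and 16 of them hosts. Snhg1 was not among the listed genes.

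SnoRNAs are short, stable nuclear RNAs that guide the chemical modification of other RNAs. C/D box snoRNAs pair with ribosomal RNA to place 2′-O-methyl groups and are held by fibrillarin, Nop56, Nop58 and Snu13, while H/ACA box snoRNAs direct the conversion of uridine to pseudouridine with dyskerin, Nhp2, Nop10 and Gar1. In mammals most of them are cut from the introns of longer genes, many of which encode ribosomal proteins or translation factors. Others, such as Gas5 and the Snhg genes, are hosts without a known protein product, and the spliced RNA of several of them is removed by nonsense-mediated decay while the intron yields the snoRNA.

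The samples formed 3 groups. WT microglia (n = 7) came from mice without the transgenes, TG Me-X04- microglia (n = 5) from transgenic mice without uptake of the amyloid dye, and TG Me-X04+ microglia (n = 4) from transgenic mice with uptake. All mice received methoxy-X04, a brain-permeable dye of amyloid aggregates, and all cells were sorted from brain as positive for Cd11b and Cd45. The labels give an age of 2 months for WT and 6 months for both TG groups, by which genotype and age cannot be told apart in the comparisons with WT. The study's methods give nearly the same age for both genotypes, and which of these holds for the libraries could not be settled. The TG libraries are numbered, and libraries of the same number in both TG groups were taken to come from the same animal. Where the animal is named as a block below, it is this number.

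Reads on listed genes ranged from 15623664 to 27579017 per library, of which 12.6% to 56.8% fell on mitochondrial genes (20.6% to 44.8% in TG Me-X04- against 31.3% to 56.8% in TG Me-X04+). The libraries fell into 2 sets on the first principal component of their deviations from the group means. Set A held WT 1 to 3, TG Me-X04- 1 and 2 and TG Me-X04+ 1 and 2, and set B held the other 9. Microglia markers were abundant in every library, at a summed 10500 to 14500 RPM (reads scaled to a common library size) in TG Me-X04+, 14500 to 18300 in TG Me-X04- and 16200 to 21400 in WT for all 8 genes. This scaling counts mitochondrial reads. Tmem119 was called lower by limma in TG Me-X04+ against TG Me-X04- (log2 fold change -1.58, adjusted p = 0.00821) and WT (-1.55, adjusted p = 0.00179). P2ry12 was called lower against WT (-0.97, adjusted p = 0.0185), and none of the 8 was called higher. The 3 listed neuron markers of 4 summed to 0.386 to 2.61 RPM in TG Me-X04+, below the 3.96 to 6.1 of TG Me-X04- and the 3.57 to 11.8 of WT. Among them Snap25 was called lower in TG Me-X04+ against WT (log2 fold change -3.19, limma adjusted p = 0.00772). Border macrophage markers (3 of 3 listed) overlapped between the groups, at 4.33 to 43.1 RPM in TG Me-X04+, 7.84 to 23.4 in TG Me-X04- and 8.62 to 20.4 in WT. So did the astrocyte markers (3 of 4 listed), at 5.62 to 18.2, 18.1 to 37.0 and 2.62 to 45.4 RPM, the oligodendrocyte markers (3 of 4), at 12.2 to 40.1, 21.0 to 52.0 and 4.50 to 57.9 RPM, and the neutrophil markers (2 of 3), which were at 0 reads in some libraries of each group and reached 10.2 RPM at most. Endothelium markers (2 of 3) summed to 7.66 to 56.3 RPM in TG Me-X04+, 7.39 to 15.2 in TG Me-X04- and 14.1 to 96.9 in WT. Of these, the receptor gene Flt1 was called higher in TG Me-X04+ against both TG Me-X04- (log2 fold change 3.55, adjusted p = 0.00608) and WT (5.87, adjusted p = 1.17e-05), while the adhesion gene Pecam1 was called lower against WT (-4.83, adjusted p = 0.0036). The T cell markers Cd3e and Cd3d were not listed. The part of these differences in the results that follow was not tested. In sorted bulk cells, fewer cells of a type and less RNA per cell cannot be told apart.

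Sequences of the snoRNAs on which the results turned were read from the GENCODE M21 transcripts on GRCm38, the build of the deposited values. The first 3 lie in Gas5 on the plus strand, the next 2 were the members that passed the test, and the last 3 come from 1 host, Hspa8, and show how close copies can be. Capitals mark the first box C (TGATGA) within the first 20 bases and the last box D (CTGA) within the last 20 bases, searched on the RNA strand only.
Snord80 (chr1:161037601-161037681): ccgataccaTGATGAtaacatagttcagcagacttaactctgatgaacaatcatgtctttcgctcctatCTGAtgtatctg
Snord78 (chr1:161036984-161037049): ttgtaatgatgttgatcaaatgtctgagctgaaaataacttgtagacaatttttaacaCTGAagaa
Snord47 (chr1:161038082-161038158): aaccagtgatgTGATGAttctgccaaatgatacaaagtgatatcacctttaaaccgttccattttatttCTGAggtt
Snord91a (chr11:74905424-74905516, plus strand): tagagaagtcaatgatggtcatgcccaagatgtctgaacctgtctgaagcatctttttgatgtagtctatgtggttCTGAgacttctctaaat
Snord71 (chr8:109839295-109839379, plus strand): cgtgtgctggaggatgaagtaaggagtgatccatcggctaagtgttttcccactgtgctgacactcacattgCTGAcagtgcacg
Snord14c (chr9:40803583-40803668, plus strand): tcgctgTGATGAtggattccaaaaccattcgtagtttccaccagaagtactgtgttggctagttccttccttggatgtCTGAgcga
Snord14d (chr9:40803995-40804080, plus strand): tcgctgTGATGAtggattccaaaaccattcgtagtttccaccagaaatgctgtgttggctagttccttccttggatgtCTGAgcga
Snord14e (chr9:40804748-40804837, plus strand): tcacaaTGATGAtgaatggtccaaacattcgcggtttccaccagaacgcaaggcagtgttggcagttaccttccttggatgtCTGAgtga
Both boxes were found in these windows in 27 of 37 C/D box sequences (73.0%) and in 0 of 22 H/ACA box sequences, whereas ACA stood exactly 3 bases before the 3′ end in 19 of the 22 H/ACA box sequences and in 0 of the 37 C/D box sequences. The sequence features thus followed the classes in the symbols for the sequences searched. The C/D box row Snord43, which the reference annotation types as a miRNA, was not among the 37 and was not checked. Snord78, Snord91a and Snord71 held box D but not these 6 letters of box C in the window. Snord14c and Snord14d were 97.7% identical over 86 aligned positions and shared a run of 46 bases, so that their reads may be split between the copies, and Snord14e was 79.6% identical to each of them. The table held Snord80 under 2 gene identifiers, as a gene of 81 bases and as one of 77 bases inside it, and their reads were equal in 13 of 16 libraries and differed by at most 1 read. These 2 rows are described as 1 snoRNA through the longer one, but both enter the counts and medians over members.

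The snoRNA rows were short and thinly covered. The C/D box members were 64 to 238 bases long and averaged 5.0 to 180 reads per library, the H/ACA box members 127 to 205 bases with 6.06 to 157 reads, and the Cajal body RNAs 70 to 414 bases with 5.62 to 189 reads. In all, 921 to 2733 reads per library fell on the 66 rows, 25 of which averaged under 10 reads and 41 of which were at 0 reads in at least 1 library. The 11 host transcripts together held 3534 to 6948 reads, most of them from Gas5. On the length-scaled log2 RPKM scale (log2 of reads per kilobase of gene and per library size, as deposited), the highest mean levels among snoRNAs were those of Snord78 at 6.99, Snora23 at 5.27, Snord14c at 5.14, Snord2 at 5.05 and Scarna3a at 4.38. Among the hosts they were those of Gas5 at 5.6, Snhg12 at 3.01, Snhg8 at 2.97, Snhg6 at 2.56 and Snhg5 at 2.44. Snord78 thus stood above its own host per length in every group mean. Gas5 was scaled by a deposited length of 3760 bases, most of its locus, so that this order does not compare the snoRNA with the spliced host.

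The snoRNAs, like the mean of all genes, separated the 2 sets of libraries but not the 3 groups. The mean log2 RPKM over the 66 rows lay between 1.74 and 2.55 in the 7 libraries of set A and between 2.72 and 3.30 in the 9 of set B, with no overlap. By group it was 2.77 ± 0.47 (SD, n = 7) in WT, 2.73 ± 0.67 (SD, n = 5) in TG Me-X04- against 2.35 ± 0.61 (SD, n = 4) in TG Me-X04+, and these groups overlapped. The other 876 listed genes under 300 bases followed the sets too, at 2.36 to 2.72 in set A and 3.15 to 3.30 in set B. The host transcripts did not, at 1.26 to 2.28 in set A and 1.54 to 2.3 in set B. Since the sets were read from the same values, these differences are a description without a test.

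**Figure D1:**
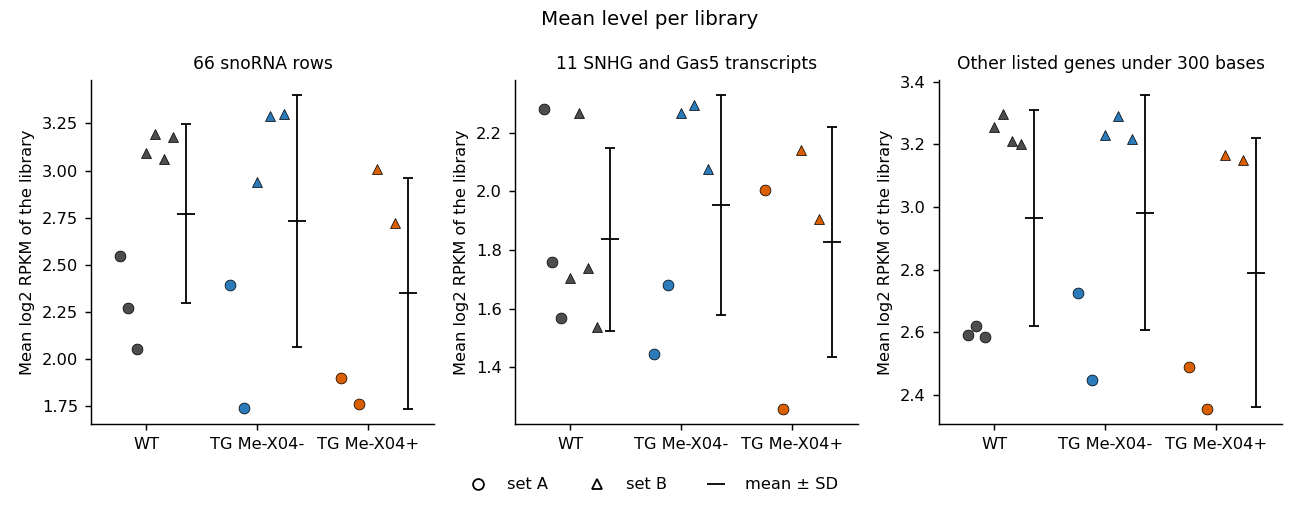
Mean log2 RPKM per library (vertical axes, each with its own range) of the 66 snoRNA rows, the 11 host transcripts and the other 876 listed genes under 300 bases, by group (horizontal axis). Circles are set A and triangles set B, and bars give the group mean ± SD. The circles of the snoRNAs stay between 1.74 and 2.55 and the triangles between 2.72 and 3.30 in all 3 groups, whereas the hosts overlap.

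Of the 66 snoRNA rows, 10 did not overlap between the sets (15.2%), where 10.1% of all genes did not. Higher in set B were Scarna2, Snora68, Snora70, Snora65, Snord95, Snord37, Snord17, Snord100 and Snord15b. The tenth, Scarna3a, was higher in set A, with 50 to 159 reads against 11 to 70 and a mean log2 RPKM of 5.58 against 3.45. Scarna2, a C/D type guide for the U2 spliceosomal RNA, had 3 to 43 reads in set A and 162 to 440 in set B. The median of set B minus set A was 0.90 on the log2 scale for snoRNAs, 0.81 for the 525 other genes annotated as small RNAs (miRNAs, small nuclear RNAs and snoRNAs or Cajal body RNAs under other symbols), 0.67 for the other genes under 300 bases, 0.35 for the 11 hosts and 0.21 for all genes. Of the snoRNA rows, those at 0 reads numbered 9 to 26 in the libraries of set A and 0 to 4 in those of set B. Values within each set are therefore given beside the results below.

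The first comparison asked what differed between phagocytic and non-phagocytic microglia of transgenic mice. The main fit did not pair the libraries by number. Among the snoRNAs, only Snord91a passed the test of TG Me-X04+ against TG Me-X04- (the TG groups), and it was lower in TG Me-X04+. Genes were called when the limma test across all 17951 genes gave a Benjamini-Hochberg adjusted p below 0.05 and the log2 fold change (log2FC) was 0.7 or more in size. By this rule 986 genes were called, 5.49% of all, 617 higher (3.44%) and 369 lower (2.06%), against 1 of the 66 snoRNA rows (1.52%) and 0 of the 11 host transcripts. At an unadjusted p below 0.05 there were 5 of the 77 members (6.49%), both rows of Snord80 among them, where 18.7% of all genes had one. The share of members past either threshold was thus below that of the whole table.

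Most snoRNAs nevertheless had a negative log2FC. The value was negative for 49 of 66 rows and positive for 17, with a median of -0.43 where the median of all genes was -0.09 and 55.6% of all genes were negative. It was -0.38 for the 38 C/D box rows (30 negative), -0.58 for the 22 H/ACA box rows (16 negative) and -0.23 for the 6 Cajal body RNAs (3 negative). The median standard error of a snoRNA's log2FC was 0.73, and the median log2FC was -0.27 for the other genes under 300 bases and -0.40 for the 525 other small RNA genes, 67.0% of which were negative. Within set A, 8 snoRNA rows were at 0 reads in all 4 TG libraries and carry no difference, and of the 58 with reads 33 were negative, with a median of -0.40. Within set B the median was -0.38, with 42 of 66 negative. The median moved with single libraries, to -0.88 without TG Me-X04+ 3, -0.81 without TG Me-X04- 2, -0.28 without TG Me-X04- 5, -0.25 without TG Me-X04+ 1, -0.24 without TG Me-X04- 4 and -0.17 without TG Me-X04+ 2. The rows share the libraries and are not replicates of one another.

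The 11 host transcripts had a median log2FC of 0.02, with 6 positive and 5 negative. When each library was scaled to the reads that fell outside mitochondrial genes, the median of all genes fell by 0.27, that of the hosts was -0.26 with 2 of 11 positive, and that of the snoRNAs was -0.71. This scaling moves all genes of a comparison by the same amount.

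**Figure D2:**
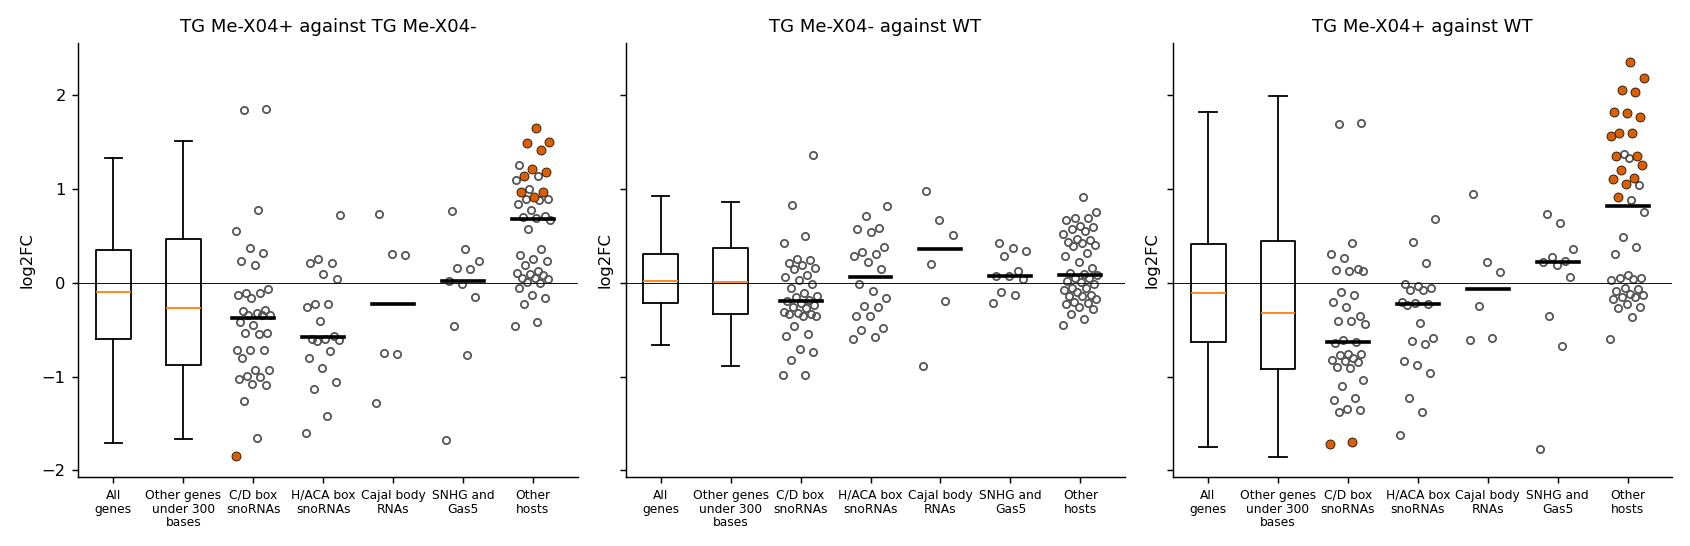
log2FC (vertical axis) in the 3 comparisons for all genes and for the other genes under 300 bases (boxes from the first to the third quartile with the median, whiskers from the 5th to the 95th percentile), and for each member and each other host (points, with a bar at the median). Filled points passed the test. In TG Me-X04+ against TG Me-X04- the C/D box rows centre on -0.38 and the H/ACA box rows on -0.58, the Snhg genes and Gas5 on 0.02 and the other hosts on 0.68, where 10 points are filled.

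Snord91a is a C/D box snoRNA and lies in an intron of Tsr1, a ribosome assembly factor. It had 18, 14, 32, 10, 11, 12 and 12 reads in WT 1 to 7, 23, 11, 26, 20 and 14 reads in TG Me-X04- 1 to 5, and 2, 0, 15 and 3 reads in TG Me-X04+ 1 to 4. TG Me-X04+ 1, 2 and 4 were below every other library, and TG Me-X04+ 3 lay among the rest. The mean log2 RPKM was 3.28 ± 0.50 (SD, n = 5) in TG Me-X04- against 1.43 ± 1.22 (SD, n = 4) in TG Me-X04+, a log2FC of -1.84 (SE 0.52, limma adjusted p = 0.0444). The call rested on few reads and was close to its threshold. Leaving out 1 library at a time gave adjusted p-values of 0.00897 to 0.15, and the call was kept only without WT 3, WT 5 or TG Me-X04+ 3. Set A gave a log2FC of -2.68 and set B one of -1.05. With the animal as a block, which pairs the libraries by their shared number, it was -1.95 in the TG libraries alone (adjusted p = 0.0287). The host Tsr1 had a log2FC of 0.08.

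Gas5, a long non-coding RNA that accumulates in cells that stop growing and whose spliced form is a known target of nonsense-mediated decay, was the only member whose libraries did not overlap between the TG groups, where 7.93% of all genes did not and 4.8% had TG Me-X04+ higher. It lies at chr1:161034422-161038539 on the plus strand. Its level was 5.87, 5.59, 5.69, 5.26, 5.62, 5.30 and 5.00 log2 RPKM in WT 1 to 7, 5.35, 5.23, 5.23, 5.69 and 5.25 in TG Me-X04- 1 to 5, and 6.69, 6.12, 5.93 and 5.71 in TG Me-X04+ 1 to 4, from 2526 to 5262 reads per library. The gap between the groups was narrow, from 5.69 in TG Me-X04- 4 to 5.71 in TG Me-X04+ 4. The log2FC was 0.77 (SE 0.22, adjusted p = 0.0510), which did not pass the test, with 1.12 in set A and 0.43 in set B. Gas5 passed with a term for the 2 sets (0.74, adjusted p = 0.00965), with voom on whole reads (0.75, adjusted p = 0.0375), with a pseudocount of 1 (0.75, adjusted p = 0.0483) and among genes of a mean log2 RPKM of at least 0 (0.77, adjusted p = 0.0484). With quantile normalization it was 0.28 (adjusted p = 0.52), and scaled to reads outside mitochondrial genes it was 0.49 (adjusted p = 0.191), so that the size depended on the scaling. It did not pass with arrayWeights (0.54, adjusted p = 0.205), with the animal as a block in the TG libraries (0.74, adjusted p = 0.0881) or with the replicate block in all libraries (0.76, adjusted p = 0.0603). With 1 library left out it passed without WT 7 (0.77, adjusted p = 0.0476) or without TG Me-X04+ 4 (0.90, adjusted p = 0.0327), and the highest adjusted p was 0.147, without TG Me-X04+ 1 (0.57).

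The 3 listed snoRNAs of Gas5 are all of the C/D box class that guides methylation of ribosomal RNA. All 3 had a positive log2FC, none passed the test, and differences among the 3 were not tested. Snord80 had 8, 1, 22, 12, 16, 12 and 11 reads in WT 1 to 7, 0, 11, 9, 43 and 17 reads in TG Me-X04- 1 to 5, and 35, 36, 21 and 39 reads in TG Me-X04+ 1 to 4. On the log2 RPKM scale the TG Me-X04+ libraries lay at 3.64 to 5.08 and overlapped with TG Me-X04- 4 at 4.47. Its log2FC of 1.85 (SE 0.68, adjusted p = 0.133) was the highest of any member and did not pass the test. It reached 3.39 within set A, where TG Me-X04- 1 had 0 reads, and 0.66 within set B. Snord78, the most abundant snoRNA per length, had 82, 120, 221, 322 and 261 reads in TG Me-X04- against 178, 112, 188 and 226 in TG Me-X04+, and the groups overlapped (log2FC 0.24, SE 0.27). Snord47 had 15, 19, 16, 49 and 33 reads in TG Me-X04- against 38, 15, 27 and 15 in TG Me-X04+ (log2FC 0.19, SE 0.39). All 3 lie wholly inside an annotated exon of a Gas5 isoform, so that reads of an unspliced host and of the mature snoRNA cannot be told apart here.

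**Figure D3:**
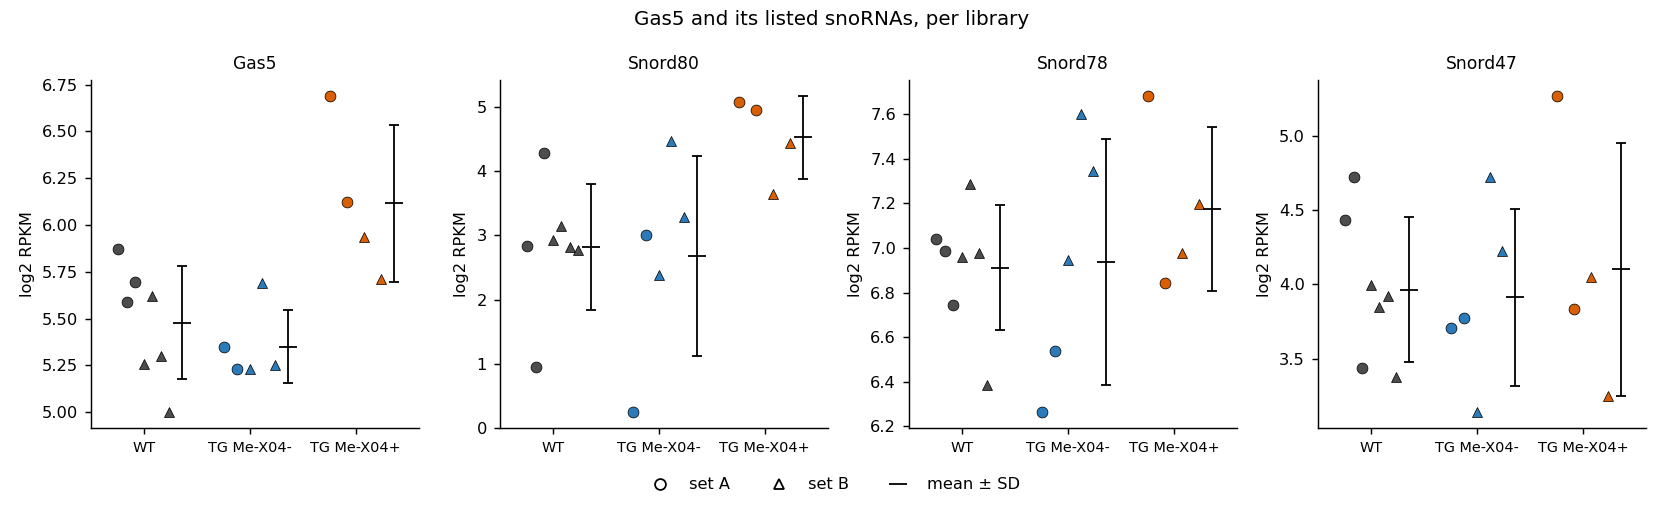
log2 RPKM per library (vertical axes, each with its own range) of Gas5 and of Snord80, Snord78 and Snord47, which lie within it, by group (horizontal axis). Circles are set A, triangles set B and bars the group mean ± SD. The 4 TG Me-X04+ values of Gas5 lie between 5.71 and 6.69, above the 5.23 to 5.69 of TG Me-X04-, whereas the groups of all 3 snoRNAs overlap.

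Of the other members, the lowest log2FC after Snord91a were those of Snord43 at -1.66 (SE 0.83, adjusted p = 0.299) and Snora30 at -1.61 (SE 0.84, adjusted p = 0.326). Snord43 is a C/D box member by its symbol only, since the reference annotation types this gene as a miRNA. It was at 0 reads in TG Me-X04+ 2 and 3, but also in WT 2, WT 3 and TG Me-X04- 2. Snora30 was at 0 reads in TG Me-X04+ 1 to 3 and at 38 in TG Me-X04+ 4, a library without which its log2FC was -2.65 (adjusted p = 0.0307). On the positive side Snord14a followed Snord80 at 0.78 (SE 0.81). Among hosts, Snhg15 was lowest at -1.68 (SE 1.09), with 0, 0, 40 and 1 reads in TG Me-X04+ against 0, 6, 28, 54 and 42 in TG Me-X04-. Snhg4 followed at -0.77 (SE 0.42) and Snhg20 at -0.46. Snhg8 at 0.37 (SE 0.38) and Snhg12 at 0.23 (SE 0.33, but -0.04 with scaling to reads outside mitochondrial genes) followed Gas5 on the positive side, and none of these passed the test.

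The snoRNAs were then set beside the genes that carry them. A listed gene on the same strand held a listed snoRNA in 62 pairs over 50 hosts, 2 of the pairs being the rows of Snord80. No such host was listed for Snord104, Snord22, Scarna13 and Scarna2. Beside 6 of the named host transcripts these were 44 other genes, among them 16 ribosomal protein genes, Eef2 and Eif4a2 of translation and the chaperone gene Hspa8. Of these 44 hosts, 10 were called between the TG groups (22.7%, where 3.44% of all genes were called higher), and all 10 were higher, namely Rpl23, Rpl12, Rpl13a, Rpl32, Rpl27a, Rpl37, Rpl5, Rack1, Eef2 and Tpt1. The count was 4 under quantile normalization, 3 with scaling to reads outside mitochondrial genes and 18 when the 2 sets entered the fit as a term. It was 0 in set A only and 15 in set B only. In these fits 421, 309, 1324, 63 and 1328 of all 17951 genes were called higher, against 617 in the main fit. The 11 pairs with the 10 hosts called in the main fit had a median snoRNA log2FC of -0.23, and none of the 11 snoRNAs was called.

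All 16 ribosomal protein hosts had a positive log2FC, with a median of 1.05 and 7 called, whereas their 17 snoRNAs had a median of -0.26, with 5 positive and 0 called. Rpl23 had 454, 536, 979, 675 and 427 reads in TG Me-X04- 1 to 5 and 1194, 1714, 1820 and 1339 in TG Me-X04+ 1 to 4, with no overlap and a log2FC of 1.66 (SE 0.28, adjusted p = 0.00213). Its snoRNA Snora21, an H/ACA box guide, had 23, 5, 38, 27 and 35 reads in TG Me-X04- against 14, 1, 15 and 26 in TG Me-X04+, and the groups overlapped (log2FC -0.73, SE 0.61). The 16 hosts were all positive under quantile normalization (median 0.66, 3 called) and under scaling to reads outside mitochondrial genes (median 0.78, 2 called) as well, and also within set A (median 1.16) and within set B (median 1.13). Of their 17 snoRNAs, 3 were at 0 reads in all TG libraries of set A, and the 14 others had a median of 0.25 there, with 7 positive and 7 negative. Within set B the median of the 17 was -0.46.

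Over all 62 pairs, the log2FC of the snoRNA was below that of its host in 53 and above it in 9, with a median difference of -0.91. Within set A, 8 of the 62 snoRNAs were at 0 reads in all 4 TG libraries, where a difference from the host holds only the host's own, and of the 54 others 42 were below the host, with a median difference of -0.42. Within set B it was 48 of 62 with a median of -0.85. The count was 53 of 62 under quantile normalization, where the median difference was -0.67. The 35 snoRNAs that lie wholly within a host exon had a median difference of -1.04 and were below the host in 32, and the 25 outside host exons had one of -0.87 and were below it in 19. Reads of the 2 nested Snord80 rows were nearly equal, so that a read appears to count for each gene it overlaps. For the 35, reads of the host's exons may thus also fall on the snoRNA row, and reads of the snoRNA on the host row. For all pairs, reads of unspliced host RNA may fall on the snoRNA row. The rows are therefore not levels of the mature snoRNA alone. Tested pair by pair, log2 RPKM of the snoRNA minus that of the host differed between the groups with a two-sided exact permutation p below 0.05 in 7 pairs, and in 0 pairs after Benjamini-Hochberg adjustment over the 62 (smallest adjusted p = 0.394). The smallest exact p was 0.0159, reached by 2 pairs, and this is the lowest that the 126 arrangements of 4 against 5 libraries allow. About 20 pairs would have had to reach it for any to pass the adjusted threshold, so that the design could hardly show a difference in a single pair.

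The 7 pairs were Snora64 in Rps2, Snord43 in Rpl3, Snord100 in Rps12, Snora21 in Rpl23, Snord15b in Rps3, Snord91a in Tsr1 and Snora65 in Rpl12. In all 7 the snoRNA was on the lower side, as it was in 53 of all 62 pairs. Snora64 and Snord15b were among the snoRNAs at 0 reads in all TG libraries of set A. The largest differences were those of Snord43 (typed as a miRNA by the annotation) at -2.43, Snora21 at -2.38, Snora65 at -2.20 and Snord100 at -2.03. Snord100 differed between the sets, with 6 and 0 reads in TG Me-X04+ 1 and 2 but 60 and 80 in TG Me-X04+ 3 and 4. Within set B, TG Me-X04- had 52, 51 and 80 reads of Snord100, and the difference of snoRNA minus host between the TG groups was -0.50 there, against -3.54 within set A. On the other side, the difference was 1.09 for Snord80 in Gas5, 0.77 for Snora23 in Ipo7 and 0.75 for Scarna3b in Dcaf5, and none of them passed.

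**Figure D4:**
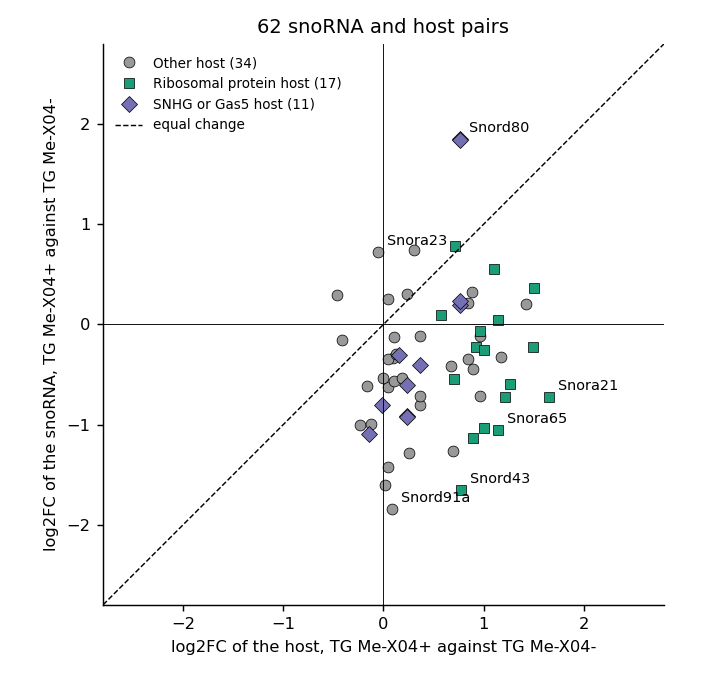
log2FC of the snoRNA (vertical axis) against that of its host (horizontal axis) in TG Me-X04+ against TG Me-X04-, 1 point for each of 62 pairs, with the line of equal change dashed. Squares are pairs with a ribosomal protein host, diamonds pairs with Gas5 or an Snhg host. Below the line lie 53 points, and all squares lie to the right of 0.

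The second comparison asked what differed between non-phagocytic microglia of transgenic and of WT mice. No member was called, where 36 of all 17951 genes were (0.201%), and the groups overlapped for each member, where 1.06% of all genes did not overlap. At an unadjusted p below 0.05 there were 2 members, Snord14c and Snord104, or 2.6% where 5.18% of all genes had one, and with limma arrayWeights 1 snoRNA, Snord104, was called. The median log2FC was -0.13 for snoRNAs, with 38 of 66 negative where 48.4% of all genes were (0.19 without TG Me-X04- 2, 0.00 without TG Me-X04- 1 and -0.22 without TG Me-X04- 4), 0.08 for the 11 hosts, with 8 positive, and 0.01 for all genes. The hosts differed between the sets, with a median of -0.39 within set A (3 of 11 positive) and of 0.31 within set B (11 of 11 positive). Snord104, a C/D box snoRNA, had 12, 2, 8, 20, 35, 21 and 14 reads in WT 1 to 7, 14, 40, 85, 59 and 32 reads in TG Me-X04- 1 to 5, and 2, 27, 31 and 28 reads in TG Me-X04+ 1 to 4. Most TG Me-X04- libraries stood above most WT libraries, with a log2FC of 1.36 (SE 0.50, adjusted p = 0.70). Set A gave 1.55 and set B 1.19, and with arrayWeights 1.24 (adjusted p = 0.0481).

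Snord14c is a copy of U14, which takes part in the processing of the small subunit RNA, and lies in Hspa8 with Snord14d and Snord14e. It had 54, 127, 126, 78, 91, 75 and 108 reads in WT 1 to 7, 31, 86, 39, 30 and 89 reads in TG Me-X04- 1 to 5, and 41, 45, 28 and 34 reads in TG Me-X04+ 1 to 4. Each TG Me-X04+ library held fewer reads than any WT library, but on the scaled values the groups overlapped. The log2FC was -0.99 (SE 0.36, adjusted p = 0.709) in TG Me-X04- and -1.10 (SE 0.39, adjusted p = 0.0691) in TG Me-X04+ against WT. Snord14d had 2, 6, 0, 29, 28, 12 and 25 reads in WT 1 to 7, fewer than Snord14c in each of them although the copies differ at only 2 of 86 positions. Its log2FC against WT was -0.55 in TG Me-X04- against -1.35 in TG Me-X04+, and that of Snord14e was -0.19 and -0.90. None of these passed the test, and with a term for the 2 sets Snord14c passed against WT in TG Me-X04+ (-1.16, adjusted p = 0.00866).

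Of the other members with the most extreme values in this comparison, Snord14a was at -0.99 (SE 0.71), Scarna3b at -0.89 (SE 0.49), Scarna2 at 0.98 (SE 1.04) and Snord87 at 0.83 (SE 0.56). The hosts ranged from -0.22 for Snhg20, with Gas5 at -0.13 and Snhg15 at -0.10, to 0.42 for Snhg4, with Snhg8 at 0.37 and Snhg6 at 0.34. In pairs, the snoRNA was below its host in 42 of 62 with a median difference of -0.19, and 0 pairs had an exact permutation p below 0.05 (smallest p = 0.0732, smallest adjusted p = 0.997). All 16 ribosomal protein hosts were positive, with a median of 0.50 and 0 called, and 14 of 16 were positive within set A.

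The last comparison set TG Me-X04+ against WT, and it shares its TG Me-X04+ libraries with the first. The snoRNAs Snord71 and Snord91a were called and both were lower in TG Me-X04+, which was 3.03% of the 66 rows where 14.3% of all genes were called and 6.02% were called lower. No host transcript was called. At an unadjusted p below 0.05 there were 8 members (10.4%), both rows of Snord80 among them, where 27.8% of all genes had one. The median log2FC was -0.43 for snoRNAs, with 51 of 66 negative where 55.9% of all genes were, -0.44 for the 525 other small RNA genes, 0.22 for hosts and -0.11 for all genes. The snoRNA median was -0.74 without TG Me-X04+ 3 and -0.69 without TG Me-X04+ 4.

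Snord71, a C/D box snoRNA, lies in an intron of Ap1g1, an adaptor of vesicle traffic. It had 55, 15, 7, 12, 25, 42 and 28 reads in WT 1 to 7, 8, 5, 24, 15 and 28 reads in TG Me-X04- 1 to 5, and 3, 4, 9 and 4 reads in TG Me-X04+ 1 to 4. On the log2 RPKM scale it was the only member whose TG Me-X04+ libraries, at 1.64 to 2.52, lay apart from all WT libraries, at 2.73 to 5.33, where 10.5% of all genes did not overlap (3.97% with TG Me-X04+ lower). The log2FC was -1.73 (SE 0.43, adjusted p = 0.0106), -1.86 within set A and -1.61 within set B, and it passed in each fit that left out 1 library (adjusted p = 0.00526 to 0.0346). Against TG Me-X04- it was -0.99 (SE 0.46, adjusted p = 0.251). With voom on whole reads neither Snord71 nor Snord91a was called. With the replicate number as a block Snord71 was at -1.48 (adjusted p = 0.0602) and only Snord91a was called, and with arrayWeights Snord91a was at -0.85 (adjusted p = 0.175).

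Snord91a had a log2FC of -1.70 (SE 0.48, adjusted p = 0.0235) against WT. Set A gave -3.14 and set B -0.44, where TG Me-X04+ 3 had more reads than any of WT 4 to 7. Without TG Me-X04+ 2 it was -1.23 (adjusted p = 0.106) and without TG Me-X04+ 4 it was -1.64 (adjusted p = 0.0533). Snord80 was at 1.71 (SE 0.63, adjusted p = 0.0830) and passed with only the 2 groups compared (adjusted p = 0.037), without WT 3 (1.95, adjusted p = 0.0472) or without TG Me-X04- 1 (adjusted p = 0.0290). Gas5 had a log2FC of 0.64 (SE 0.21, adjusted p = 0.0455), under the required fold, and passed both thresholds without WT 1 (0.70) or without TG Me-X04+ 4 (0.77). It was 0.18 with quantile normalization (adjusted p = 0.609), 0.48 with scaling to reads outside mitochondrial genes (adjusted p = 0.126) and 0.50 with the replicate block (adjusted p = 0.14). Snora30 was at -1.62 (SE 0.78) and passed without TG Me-X04+ 4 (-2.66, adjusted p = 0.0097). Scarna9 was at 0.94 (SE 0.53) and passed with arrayWeights (1.60, adjusted p = 0.0397). Among hosts, Snhg15 was at -1.78 (SE 1.02), Snhg20 at -0.67, Snhg4 at -0.35 (0.26 within set B and 0.07 with arrayWeights), Snhg8 at 0.73 (SE 0.35) and Snhg12 at 0.36, and none of these hosts passed.

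Of the 16 ribosomal protein hosts, 13 were called against WT and all 13 were higher (81.2%, where 8.25% of all genes were called higher), with a median of 1.47. The count was 9 under quantile normalization and 8 with scaling to reads outside mitochondrial genes. In these fits 1380 and 1227 of all genes were called higher, against 1481 in the main fit. Their 17 snoRNAs had a median of -0.24, with 3 positive and 0 called. Over the 62 pairs, the log2FC of the snoRNA was below that of its host in 55, with a median difference of -1.16. These counts rest on the same TG Me-X04+ libraries as those above and are no independent evidence.

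**Figure D5:**
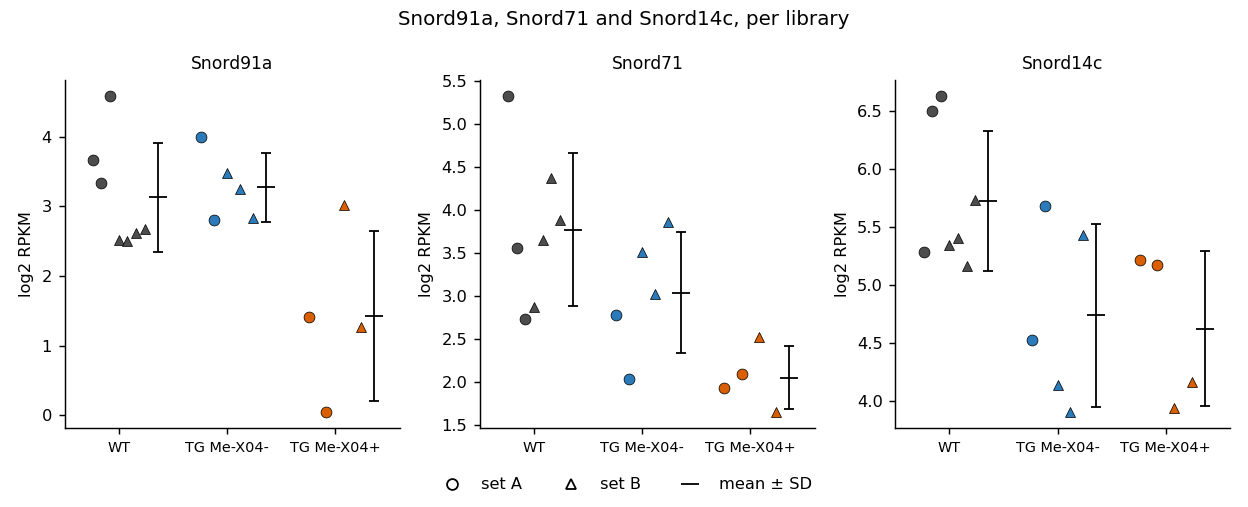
log2 RPKM per library (vertical axes, each with its own range) of Snord91a, Snord71 and Snord14c by group (horizontal axis). Circles are set A, triangles set B and bars the group mean ± SD. The TG Me-X04+ values of Snord71 lie at 1.64 to 2.52, below all WT values, whereas 1 TG Me-X04+ triangle of Snord91a lies among the other groups.

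Within the 9 libraries of set B, a fit chosen after the data were seen called 4 snoRNAs between the TG groups, where it called 12.6% of all genes. All 4 were lower, namely Snora28 at -0.75, Snord82 at -1.03, Snord12 at -1.95 and Snora81 at -0.89. Snora81 had 78, 70 and 97 reads in the 3 TG Me-X04- libraries of set B and 36 and 41 in the 2 TG Me-X04+ libraries. In set A the same fit called 0 snoRNAs, with 63 genes called higher and 22 lower in all. Against WT, set B gave 7 snoRNAs, Snord71, Snord14c, Snord14d, Snora28, Snora81 and Snord82 lower and Scarna9 higher, where 20.3% of all genes were called, and set A gave Snord91a and Snord17 lower, where 9.20% of all genes were.

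The proteins that hold, assemble and release snoRNAs, and those of nonsense-mediated decay, were given by 4 lists, all of whose genes were in the table. Of the 8 core proteins of both particle classes, the 14 assembly and Cajal body factors, the 12 factors of intron release and trimming and the 10 factors of nonsense-mediated decay, 0 were called in any of the 3 comparisons by limma, and 2, 0, 2 and 0 of them had an unadjusted p below 0.05 between the TG groups. Between the TG groups the medians of the lists were 0.08, 0.06, -0.13 and -0.17, where the median of all genes was -0.09. Nop10 and Gar1, which belong to the same H/ACA particle, were the extremes of the core list. Nop10 had 28, 74, 230, 142 and 122 reads in TG Me-X04- 1 to 5 and 81, 137, 452 and 365 in TG Me-X04+ 1 to 4, a log2FC of 1.39 (SE 0.51, adjusted p = 0.138). Gar1 had 79, 64, 150, 119 and 168 reads in TG Me-X04- against 14, 24, 83 and 65 in TG Me-X04+, a log2FC of -1.21 (SE 0.47, adjusted p = 0.161). With a term for the 2 sets Nop10 passed at 1.51 (adjusted p = 0.00748), and it passed at 1.44 with the animal as a block in the TG libraries (adjusted p = 0.0110). In the other lists the extremes were Wrap53 at 0.91 (1.89 and an adjusted p of 0.0463 without TG Me-X04+ 4) and Pih1d1 at -0.99 among assembly factors, Mtrex at 0.50 and Exosc5 at -1.60 in intron release and trimming, and Upf3b at 0.31 and Upf1 at -0.57 in nonsense-mediated decay.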

How the data were processed

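RNA was sequenced from microglia sorted from 16 mouse samples. Per the methods, these libraries were made from total RNA with an Ovation kit, and small RNAs were sequenced from separate libraries that were not used here. Per the methods and the submitters' notes, the authors trimmed reads with Trim Galore 0.4.4, aligned them to GRCm38 with STAR 2.5.4b, counted them with featureCounts on Gencode genes, filtered low counts and scaled the libraries with edgeR 3.24.3. The deposited values are log2 RPKM made by the authors, with an offset proportional to library size. Per the methods, sorted microglia were sequenced on a HiSeq instrument, and additional samples later on a NextSeq instrument with longer reads. Whether counting used strand, and which library was sequenced on which instrument, is not given in the sources used here. Whether the 2 sets of libraries match these runs was not tested. The table also holds fold changes and p-values of the authors' own comparisons, which were not used.

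From the deposited log2 values, whole reads were recovered (100.0% of values within 0.01 of a whole read). limma 3.58.1 with a variance trend (R 4.3.3) was fitted to all 17951 genes in 3 groups, checked on simulated data, and genes were called at a Benjamini-Hochberg adjusted p under 0.05 with a log2FC of 0.7 or more in size. The limma fit was planned in place of the authors' count test because the deposited unit was expected to be log2. Since whole reads could be recovered, voom on them was fitted as an alternative. Differences between a snoRNA and its host were tested with exact permutation tests in scipy 1.17.1. A fold change of a member with few reads is understated by the offset. Named genes were the members called, the 3 highest and 3 lowest snoRNAs and hosts of each comparison, the 5 highest levels, and the extremes of each list. Snord100, Snord14d, Snord14e, the snoRNAs of Gas5, Snora21 with Rpl23, the pairs and the calls within a set were added after their values were seen. Members and lists were chosen with earlier results of these data known. Hosts were read from GENCODE M21 on GRCm38, and 21 symbols came from its gene names.

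Libraries of the same number in both TG groups deviated together (correlation of deviations 0.292 or higher in 4 pairs, mean 0.317), but TG libraries of different number within a set did nearly as much (mean 0.272). The pairing therefore rests on the numbers in the labels. The labels do not say how many mice went into a library. The study's methods count each replicate of the animal samples as an individual mouse. Its figure legend gives more TG animals than either TG group has libraries here. The p-values measure the spread between these libraries.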

Additional observations from a re-analysis of the deposited data

Results flagged for a closer look

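Of 75 groups of values tested for 1 library far from the others of its group, 5 held one, where chance gives about 1 in 20. Gas5 in TG Me-X04- reached 5.69 log2 RPKM (4904 reads) in TG Me-X04- 4, above 5.35 in the nearest library. Snhg15 in TG Me-X04+ was at 0.44 log2 RPKM (40 reads) in TG Me-X04+ 3, and the nearest library was at -3.30. Snora30 in TG Me-X04+ was at 3.72 log2 RPKM (38 reads) in TG Me-X04+ 4, and the other libraries of the group had 0 reads. Snord14a in TG Me-X04- was at 3.39 log2 RPKM (20 reads) in TG Me-X04- 5, and the nearest library was at 1.01. Snord2 in TG Me-X04- was low in TG Me-X04- 1, at 2.53 log2 RPKM (5 reads) against 5.24 in the nearest library.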

How the results depend on the processing

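Of the 66 snoRNA rows 25 averaged under 10 reads, and the calls moved with the processing. In each case the cause was not tested. Between the TG groups, 0 snoRNAs were called without the variance trend, with arrayWeights, with a pseudocount of 1, with voom on whole reads, with only the 2 groups compared and in set A only, and 4 in set B only. For Snord91a the adjusted p was then 0.0603, 0.0578, 0.0556, 0.136, 0.0874, 0.104 and 0.121 in this order. The host count was 1 (Gas5) with a pseudocount of 1, the filter at a mean log2 RPKM of 0, voom and the term for the sets. The count over the lists of snoRNP, processing and decay genes was 1 (Nop10) with the block in the TG libraries and with the term for the sets. Between TG Me-X04- and WT, 1 snoRNA (Snord104) was called with arrayWeights. Between TG Me-X04+ and WT, 0 snoRNAs were called with voom, 1 with the replicate block and 7 in set B only, and the count over the lists was 1 with voom, with the term for the sets and in set A only and 3 in set B only. The fits restricted to a set, the block in the TG libraries alone and the leaving out of snoRNAs at 0 reads within a set were chosen after seeing the data.

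With 1 library left out at a time, the count of snoRNAs ranged from 0 to 1 between the TG groups and from 1 to 4 between TG Me-X04+ and WT (4 without WT 3 or without TG Me-X04- 1, 1 without TG Me-X04+ 2). The count of hosts ranged from 0 to 1 in both, and that over the lists from 0 to 1 and from 0 to 2. The snoRNA median ranged from -0.88 to -0.17 between the TG groups, from -0.22 to 0.19 between TG Me-X04- and WT and from -0.74 to -0.32 between TG Me-X04+ and WT.

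Scaling by reads outside mitochondrial genes moved the median log2FC of all genes by -0.27, 0.11 and -0.16 in the 3 comparisons and gave 309 genes higher and 721 lower between the TG groups, against 617 and 369, and 1227 and 1528 between TG Me-X04+ and WT, against 1481 and 1081. Quantile normalization gave 421 and 407 between the TG groups. The snoRNA median ranged from -0.71 to -0.08 between the TG groups, from -0.30 to 0.00 between TG Me-X04- and WT and from -0.60 to -0.18 between TG Me-X04+ and WT. The -0.08 is that of set A only, where 8 rows at 0 reads in all TG libraries count as no difference.

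The direction of some members that did not pass the test turned. Snhg12 was at -0.042 between the TG groups with scaling to reads outside mitochondrial genes. Between TG Me-X04- and WT, Gas5 was at 0.083 with arrayWeights and 0.095 in set B, Snord87 at -0.066 and Snhg20 at 0.091 in set B, Snhg8 at -0.0080 in set A, and Snhg15 at 0.43 with arrayWeights, 0.016 with a pseudocount of 1, 0.012 with scaling outside mitochondrial genes, 0.093 with the block and 0.56 in set B. Snhg4 was at 0.074 with arrayWeights and 0.26 in set B between TG Me-X04+ and WT. With 1 library left out, the range was -0.011 to 1.41 for Snord14a, -1.89 to 0.035 for Pih1d1 and -0.044 to 0.52 for Upf3b between the TG groups, and -0.38 to 0.036 for Snhg20 and -0.60 to 0.62 for Snhg15 between TG Me-X04- and WT.

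With the replicate number as a block, which pairs the TG libraries of the same number, Snord91a was called between the TG groups at -2.002 (adjusted p = 0.0133). The WT numbers are not shared animals, and the correlation of deviations with same-numbered WT libraries was 0.184 to 0.315 within a set and -0.272 and -0.289 for number 3, whose WT library is in the other set.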
